A study of Mus musculus with 6 samples.

Results

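The proteasome genes described here are the 46 of 24341 gene symbols in a liver expression table whose names run from Psma to Psmg followed by a number. Psmb8 and Psmb9, the interferon-linked catalytic subunits, were left out of the set and are given beside it. Psmb10, Psme1 and Psme2, also interferon-linked, were kept. The rule uses names and not values, but it was set with earlier results of these data known. The genes fall into the rings of the core particle (7 alpha and 7 beta subunits, with 3 tissue isoforms), the base (6 ATPases and 3 other subunits), the lid (8), assembly genes (7) and the activators and inhibitor (5). Of these, 44 reached 1 FPKM (fragments scaled to transcript length and library depth) in at least 3 libraries and were tested. Psma8, a testis form of an alpha subunit, lay between 0.265 and 0.816 FPKM, and Psmb11, a thymus form of a beta subunit, was listed at 0 in all 6 libraries.

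Poly(A) RNA was profiled in livers of C57BL/6 mice on regular chow. The 3 control livers carried Prkciflox/flox, loxP-flanked alleles of the atypical protein kinase C lambda/iota gene, and the 3 others were labelled Prkciflox/floxAlbCre, the same alleles with Cre recombinase under the albumin promoter. That promoter acts in hepatocytes and can act in the lineage they share with bile duct cells, and Kupffer and endothelial cells lie outside that lineage. Age was 30 weeks by the labels of the samples and 28 weeks by the series' design text. The labels number the livers 1 to 3 in each group and do not say whether these are separate animals, so the p-values cover only the spread among these samples, part of which may be technical. A value after ± is the SD over n = 3 livers.

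The proteasome is the protease that degrades proteins tagged with ubiquitin chains. Its core particle is a barrel of alpha and beta rings, in which a few of the beta subunits carry the cutting sites. The regulatory particle caps the barrel: its lid removes ubiquitin, and its base binds the chain, unfolds the substrate with ATPases and threads it into the barrel. Chaperones assemble both particles, and other caps replace the regulatory particle on some barrels. Liver is rich in proteasomes, and in mammals the transcription factor NRF1 (gene Nfe2l1) raises the subunit genes together when proteasome activity falls short.

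Read totals, estimated from the steps between low values, were 14780000 to 16540000 in the controls and 15200000 to 17620000 in the livers labelled knockout. A tested proteasome gene rested on about 83.3 reads (Psmg4, lowest liver) to 4550 reads (Psma2, highest liver), an approximate figure that uses its principal annotated transcript. Of 12 hepatocyte markers 11 were tested, and 0 were called. Of the 11, 5 had a higher mean in the livers labelled knockout and 6 a lower mean (background 56.1% higher). Their median log2(FPKM + 1) difference was -0.08. Tat had the largest positive difference, at 543 ± 65.0 FPKM in controls against 642 ± 87.2 FPKM, with overlapping groups. Every liver labelled knockout lay below every control for 3 of the 11 (background 5.56%), among them Ttr (transthyretin, 5197 ± 1273 against 3023 ± 145 FPKM, limma adjusted p = 0.440) and Fgb (a fibrinogen chain, 3634 ± 668 against 2475 ± 284 FPKM, limma adjusted p = 0.503). Alb was listed at 0 in every library, so a 0 in this table can be a failed estimate. Prkci itself stood at 4.55 ± 0.963 FPKM in controls and 5.12 ± 0.650 FPKM in the others. The value covers the whole gene and all liver cells and does not check the labels, so groups are named here by label. Knockout replicate 1 stood apart from the other livers, with 44.7% of all tested genes above the highest control, against 27.0% in knockout replicate 2 and 25.6% in knockout replicate 3. In that liver 12 Kupffer cell and macrophage markers summed to 865 FPKM (140 to 631 FPKM in controls, 263 and 451 FPKM in knockout replicates 2 and 3) and 5 neutrophil markers to 264 FPKM (5.20 to 26.9 FPKM in controls, 8.68 and 12.3 FPKM). Of the macrophage markers, Timd4 (4.54 FPKM), Marco (13.5 FPKM) and Cd163 (5.71 FPKM) lay within the range of the controls in that liver. The others on that list lay above every control there. The part of these cell types in the results below was not tested. In bulk liver, fewer cells of a type and less RNA per cell cannot be told apart.

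By class medians of FPKM, core subunits were the most abundant in controls, followed by the regulatory particle, the activators and inhibitor (22.7 FPKM) and the assembly genes. In control livers the mean level of the 14 constitutive core genes ran from 32.7 FPKM for Psma5 to 158 FPKM for Psmb4, with a median of 94.96 FPKM. The 17 base and lid genes lay in a narrower range, from 34.5 FPKM for Psmd14, the lid's deubiquitinase, to 77.1 FPKM for the ATPase Psmc3, with a median of 55.9 FPKM. The 7 assembly genes ran from 8.90 FPKM (Psmd10, known as gankyrin) to 22.3 FPKM (Psmg1), with a median of 17.1 FPKM. Within the core, the highest level was 4.83 times the lowest in controls and 5.23 times in the livers labelled knockout. Within the base and lid this ratio was 2.24 in controls and 3.08 in the others, where Psmd4 took the top place. No test was made of these ratios.

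**Figure D1:**
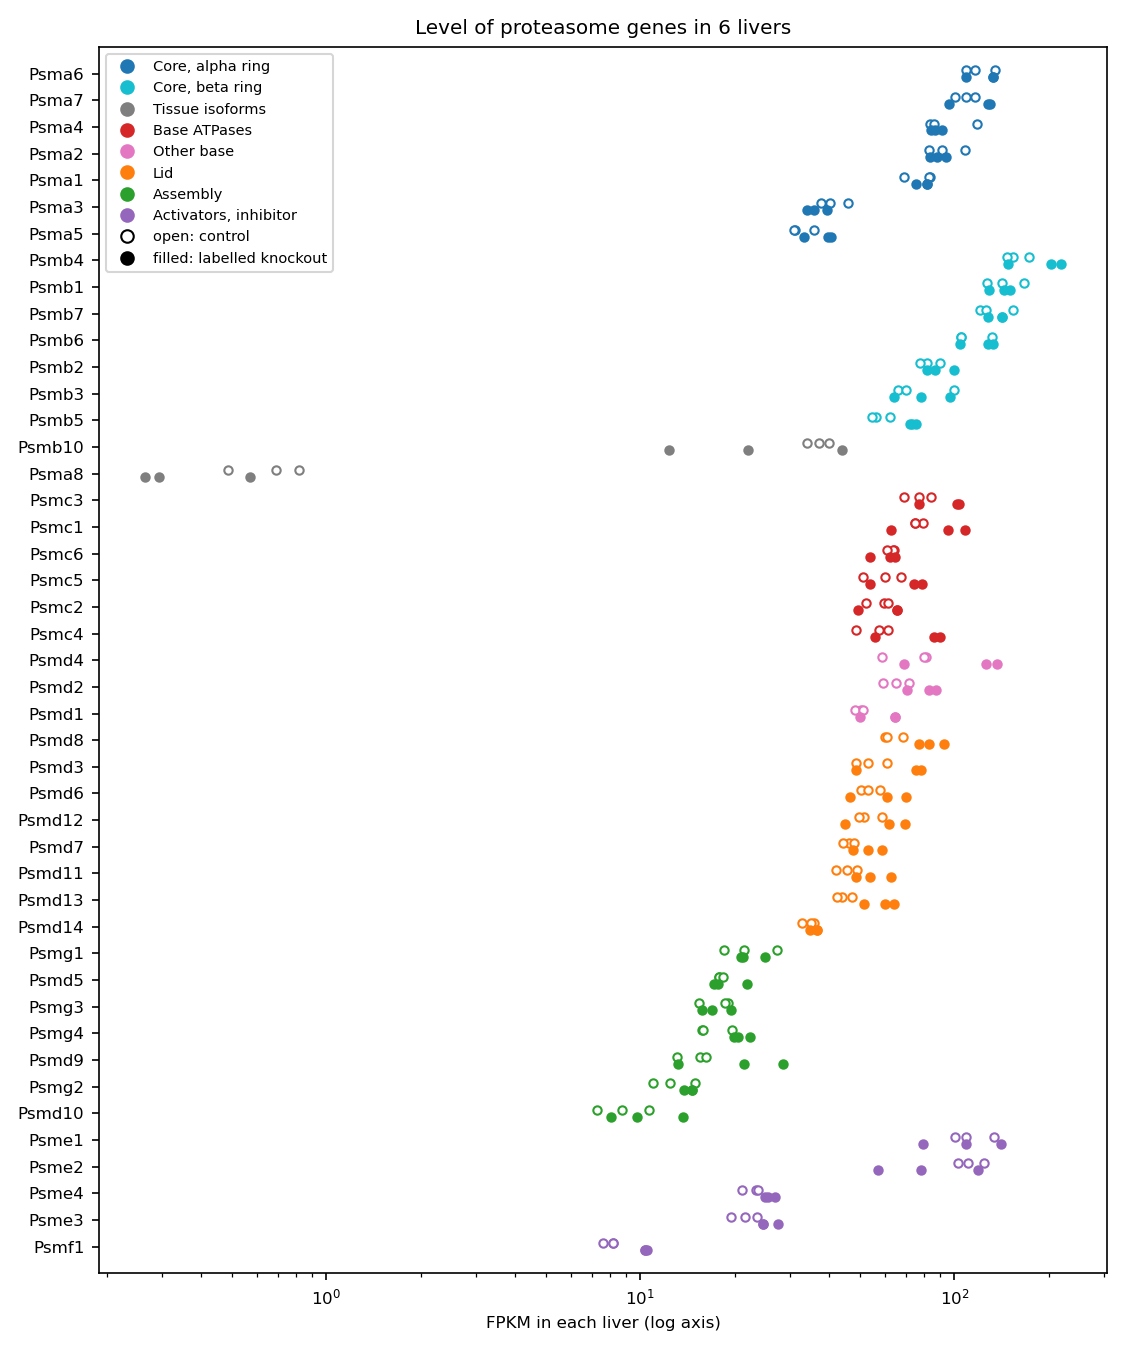
FPKM (log axis) of 45 proteasome genes in each liver, with controls as open and livers labelled knockout as filled points, coloured by class and ordered by control mean within each class. Core genes lie mostly between 32.7 and 158 FPKM and assembly genes between 8.90 and 22.3 FPKM in control means, and Psmb11, listed at 0, is left out.

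The livers labelled knockout had slightly higher mean levels of most proteasome genes, and no gene passed the test. Of 44 tested genes 35 had a higher mean and 9 a lower mean (79.5% higher, against 56.1% of all tested genes). The median log2(FPKM + 1) difference was 0.14, against 0.04 for all 10963 tested genes. Under quantile normalization 34 means were higher and under median-of-ratios scaling 33, with medians of 0.13 and 0.12 beside -0.01 and 0.02 for all tested genes. Single livers moved both medians: without knockout replicate 1 they were 0.22 and -0.03, without control replicate 3 they were 0.085 and 0.027, and without knockout replicate 2 they were 0.095 and 0.067. limma with Benjamini-Hochberg adjustment called 0 proteasome genes higher and 0 lower, against a background of 0.00912% higher and 0.0182% lower over all genes. The lowest adjusted p among the members was 0.386, for Psmf1. At an unadjusted p under 0.05, 4 members were higher and 0 lower, that is 9.09% higher beside a background of 6.34% (3.59% lower), so this count is near that of genes at large. In 7 of 44 genes every liver labelled knockout lay above every control (15.9%, background 10.7%), and in 0 genes below (background 5.56%). With the replicate number as a block 0 genes were called, and 6 were higher at an unadjusted p under 0.05 (background 10.1%) and 0 lower (6.07%).

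**Figure D2:**
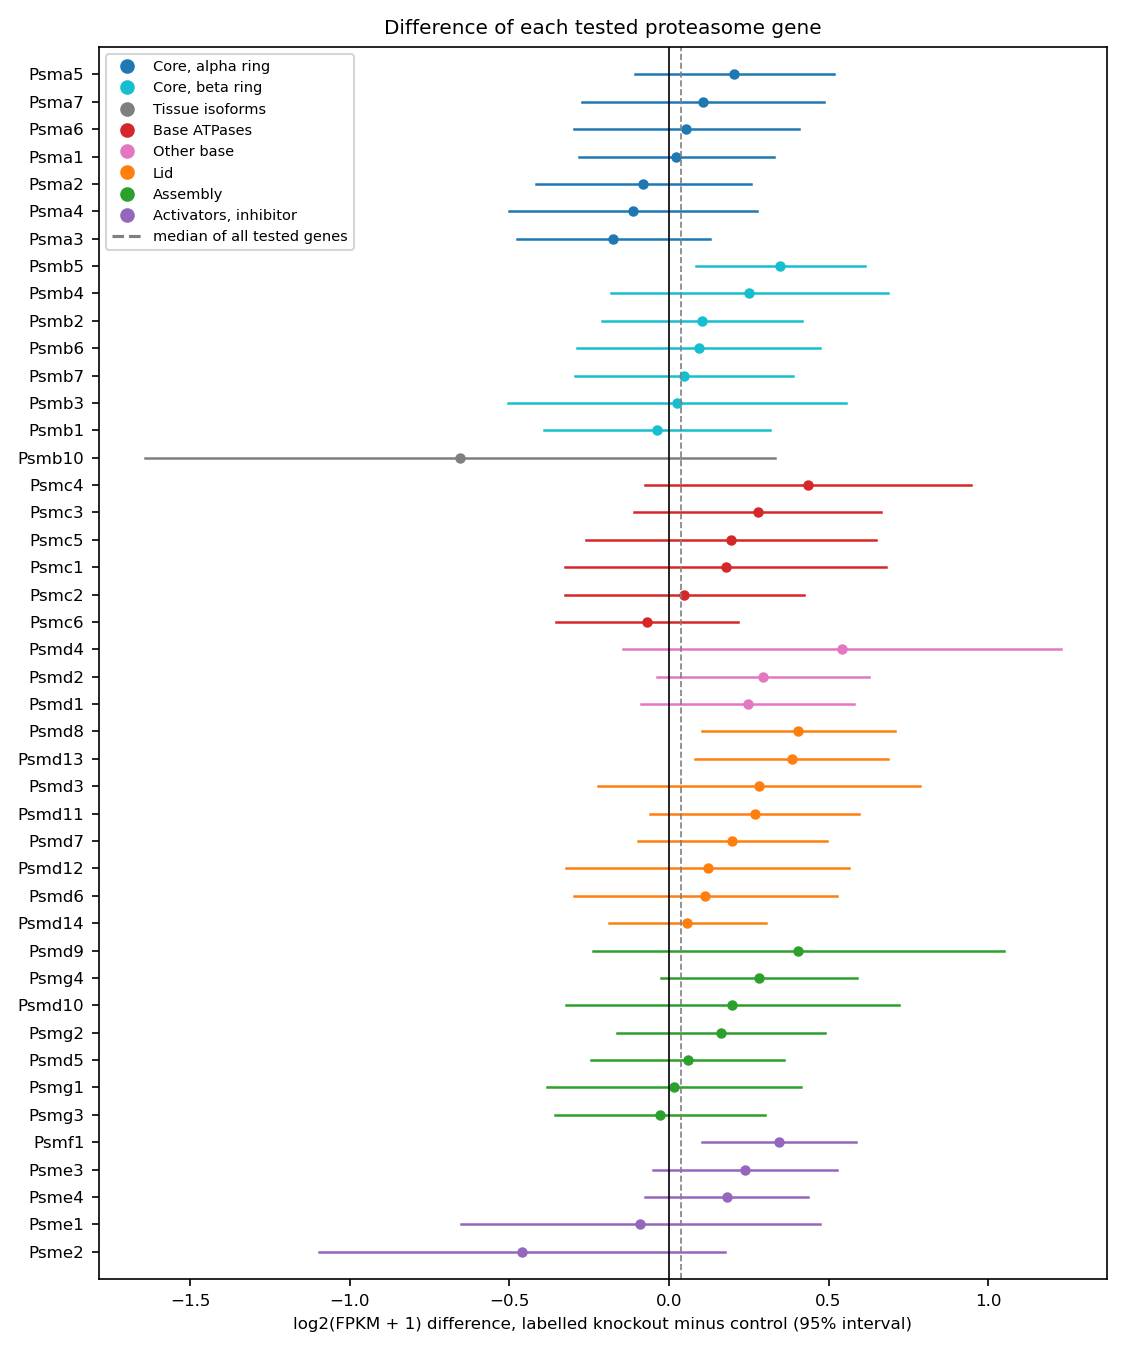
Difference in log2(FPKM + 1), labelled knockout minus control, of each of the 44 tested proteasome genes with its 95% interval from limma, coloured by class. The intervals of Psmb5, Psmd8, Psmd13 and Psmf1 lie above 0, all others cross it, and the dashed line at 0.04 marks the median of all tested genes.

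The regulatory particle stood higher in knockout replicates 2 and 3 and not in knockout replicate 1. All 17 base and lid genes stood above the highest control in knockout replicate 2 (27.0% of all tested genes did), 16 of 17 did in knockout replicate 3 (background 25.6%), and 2 of 17 did in knockout replicate 1 (background 44.7%), where 5 lay below the lowest control (background 14.5%). In knockout replicates 2 and 3, 0 of 17 lay below it (31.0% and 27.4% of all tested genes). The median difference of the 17 genes was 0.25 on the log2 scale, with 16 means higher and 1 lower, and the same split under quantile and median-of-ratios scaling. Leaving out 1 liver at a time gave medians of 0.17 to 0.37, the highest without knockout replicate 1 (17 of 17 means higher). For the 14 constitutive core genes the median was 0.05, with 10 means higher and 4 lower. Each liver moved it: it was 0.16 without knockout replicate 1, with 11 means higher, and 0.16 without control replicate 2, with 13. It was 0.037 without control replicate 1, 0.023 without either of knockout replicates 2 and 3, and -0.0021 without control replicate 3. Summed over 7 bile duct markers, of which 2 were tested, controls gave 60.8, 48.0 and 29.9 FPKM and livers labelled knockout 148, 16.5 and 15.3 FPKM. Most of this was Spp1 alone, at 55.6, 43.2 and 27.1 FPKM in controls against 144, 13.5 and 14.0 FPKM. The other markers stood at 2.64 FPKM or less in every liver. In knockout replicate 1, Krt7, Krt19, Epcam and Cftr lay below every control, Sox9 among the controls and Tspan8 above them. Krt7, Epcam and Cftr lay below every control in knockout replicates 2 and 3 as well. They stood at 1.12 FPKM or less in every liver and were not tested. The sum therefore follows Spp1 and not the list. The part of bile duct cells in the pattern was not tested. In knockout replicates 2 and 3 alike, 5 of the 14 core genes stood above the highest control. The difference between regulatory particle and core was not tested. At an unadjusted p under 0.05 the 17 genes held 2 higher (background 6.34%) and 4 with the replicate block (background 10.1%). They held 1 under median-of-ratios scaling (background 5.1% higher and 5.11% lower) and 10 without knockout replicate 1 (background 8.46%). Of these 10, 0 passed after adjustment (background 0.711% higher and 0.684% lower).

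**Figure D3:**
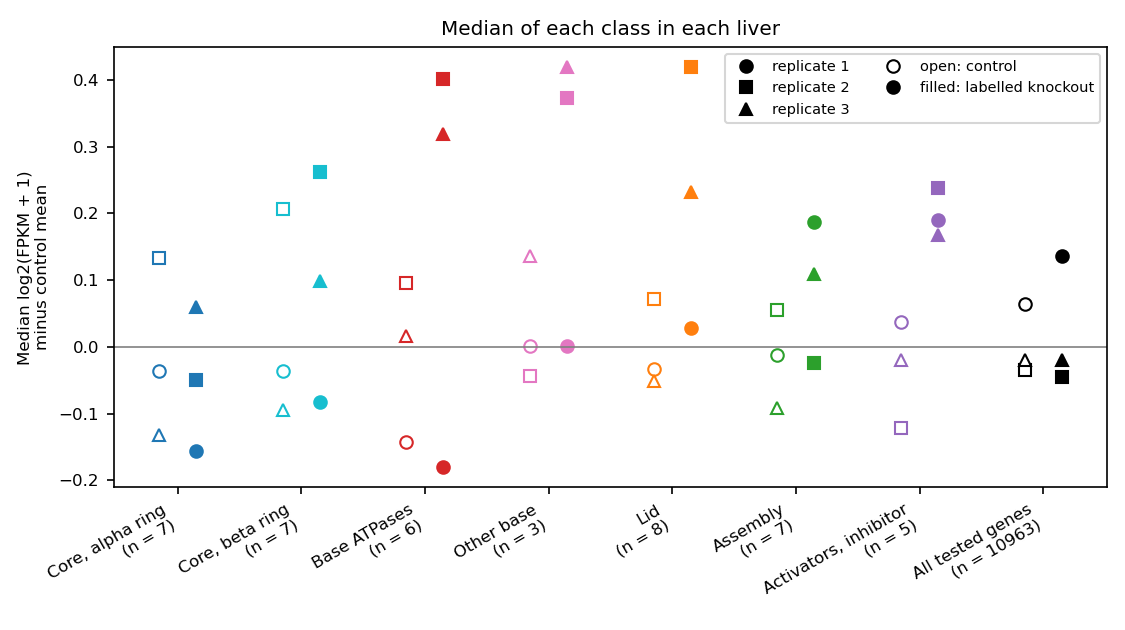
Median over each class of log2(FPKM + 1) minus the control mean, 1 point per liver, with open symbols for controls, filled symbols for livers labelled knockout, and circles, squares and triangles for replicates 1, 2 and 3. For the base ATPases knockout replicates 2 and 3 lie at 0.40 and 0.32 and knockout replicate 1 at -0.18, and for all tested genes the 6 points lie between -0.04 and 0.14.

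In the base, the ATPases unfold the substrate and the other subunits hold ubiquitin receptors and scaffolds. Psmd4 (chr3:95032694-95042614, minus strand, GRCm38 with GENCODE M21) encodes the ubiquitin receptor RPN10 and had the largest positive difference of all members. It stood at 59.0, 81.1 and 79.8 FPKM (replicates 1, 2 and 3, as in all lists below) in control livers against 69.2, 137 and 126 FPKM in livers labelled knockout. Knockout replicate 1 lay within the controls and the others above them (log2 difference 0.54, SE 0.29, 95% interval -0.14 to 1.23, limma adjusted p = 0.583). Without knockout replicate 1 the difference was 0.85 (SE 0.18, limma adjusted p = 0.0944). Psmc4, the ATPase known as RPT3, was at 48.5, 61.5 and 57.7 FPKM in control livers against 55.8, 89.8 and 86.3 FPKM in livers labelled knockout. Its groups overlapped through knockout replicate 1 alone (log2 difference 0.44, SE 0.21, limma adjusted p = 0.557). With sample quality weights it passed (0.62, SE 0.13, limma adjusted p = 0.0461), under a setting that called 2.84% of all genes higher and 2.06% lower.

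Psmd2 encodes RPN1, a scaffold that docks ubiquitin carriers. It was at 65.3, 59.2 and 71.8 FPKM in control livers against 70.7, 83.2 and 87.5 FPKM in livers labelled knockout, so again only the first of these lay among the controls (limma adjusted p = 0.543). Psmc3, the most abundant ATPase, was at 69.3, 84.5 and 77.4 FPKM against 77.1, 102 and 104 FPKM. The remaining 4 ATPases and Psmd1, the other large scaffold, had differences from -0.07 (Psmc6) to 0.25 (Psmd1). Psmc6 was the only base gene with a lower mean, at 63.0 ± 1.67 against 60.2 ± 5.58 FPKM.

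In the lid, all 8 genes had a higher mean in the livers labelled knockout, with differences from 0.06 (Psmd14) to 0.41 (Psmd8) and a median of 0.23. Psmd8 (chr7:29174188-29180701, minus strand) encodes the lid subunit RPN12, whose joining completes the lid in yeast. It stood at 60.1, 68.4 and 61.2 FPKM in control livers against 83.0, 92.6 and 77.0 FPKM in livers labelled knockout. All 3 lay above every control, knockout replicate 1 included (log2 difference 0.41, SE 0.13, 95% interval 0.10 to 0.71, limma adjusted p = 0.417). Psmd13 (chr7:140881968-140898643, plus strand), the lid subunit RPN9, was at 43.8, 47.1 and 42.4 FPKM against 51.7, 64.0 and 60.0 FPKM. These groups did not overlap either (log2 difference 0.38, SE 0.13, limma adjusted p = 0.433). The gene passed with sample quality weights (limma adjusted p = 0.0423), a setting that called 2.84% of all genes higher and 2.06% lower. That setting rests mainly on 1 liver of the label, with a weight of 8.30 for knockout replicate 3 against 0.264 and 0.841 for knockout replicates 1 and 2.

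Exons of Psmd13 overlap Sirt3 on the other strand, and the sources used here do not give whether strand was used in counting. Sirt3, a mitochondrial deacetylase gene, stood at 63.0 ± 9.47 FPKM in controls and 63.0 ± 11.2 FPKM in the others. Psmd3 and Psmd11 had differences of 0.28 (SE 0.21) and 0.27 (SE 0.14). Psmd14, whose product cuts the ubiquitin chain off the substrate, differed least, at 34.5 ± 1.55 against 35.9 ± 0.967 FPKM, with an interval of -0.19 to 0.30 on the log2 scale.

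**Figure D4:**
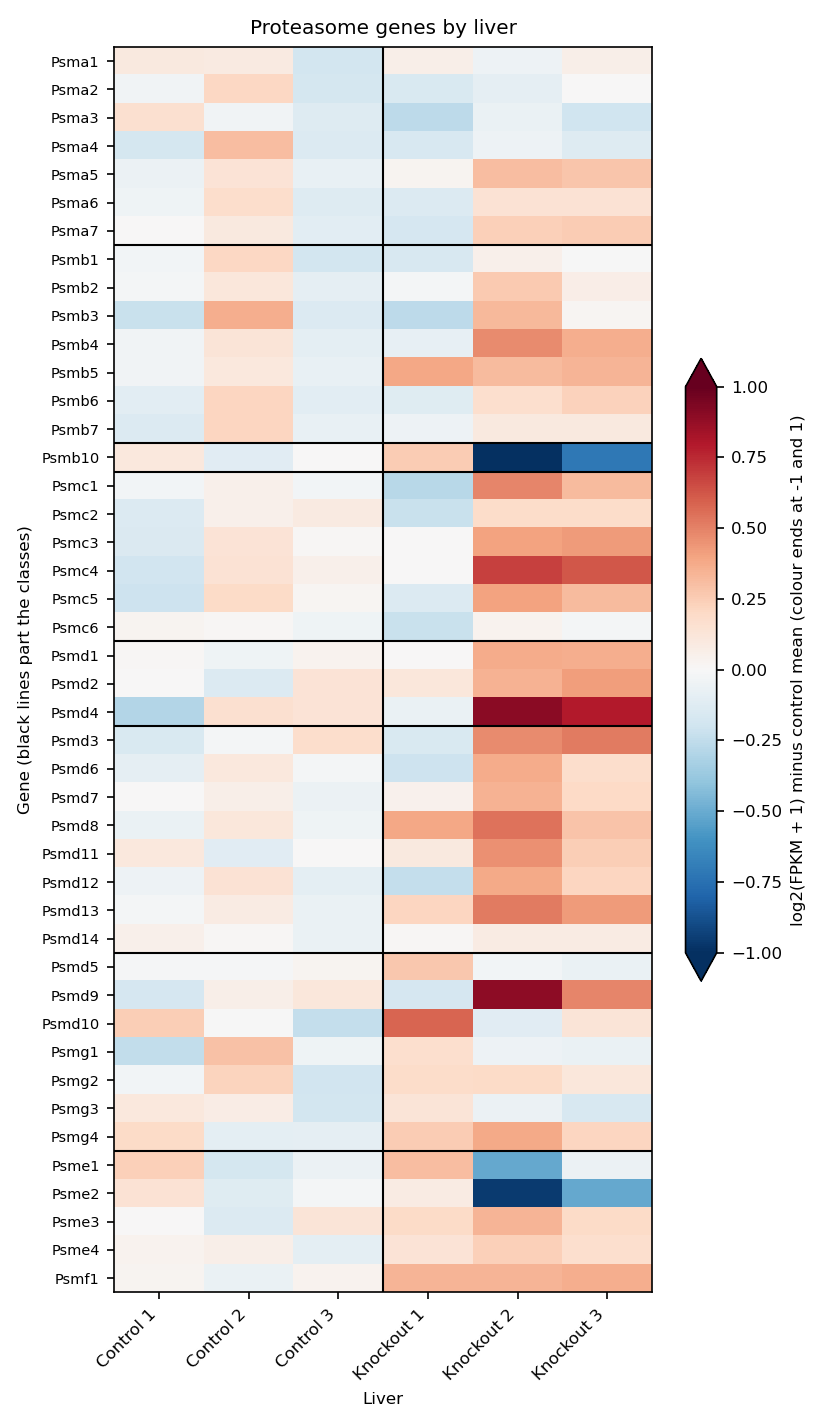
Log2(FPKM + 1) minus the control mean for the 44 tested proteasome genes (rows, parted by class) in each of the 6 livers (columns), on a colour scale that ends at -1 and 1. Base and lid genes are mostly red in knockout replicates 2 and 3 and mixed in knockout replicate 1, and Psmb10 and Psme2 are blue in knockout replicates 2 and 3.

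In the core particle the alpha ring, which gates the barrel, differed little. Its 7 genes had a median difference of 0.02, which turned to -0.00119 under median-of-ratios scaling, with 4 means higher and 3 lower (3 and 4 under that scaling). Single livers turned it further, to -0.067 without control replicate 3 (2 higher and 5 lower) and to 0.066 without control replicate 2 (6 and 1), and it lay at 0.00496 to 0.00640 without each liver labelled knockout. Psma6, the most abundant alpha gene, was at 116, 135 and 109 FPKM in control livers against 109, 132 and 132 FPKM in livers labelled knockout, and the groups overlapped fully. Psma5 had the smallest p of the ring, at 31.2, 35.8 and 30.9 FPKM against 33.3, 40.5 and 39.7 FPKM (limma adjusted p = 0.637). The other 5 alpha genes had differences from -0.17 (Psma3) to 0.11 (Psma7).

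Of the 3 catalytic genes of the beta ring, Psmb5 stood higher in the livers labelled knockout, while Psmb6 and Psmb7 overlapped with the controls. Psmb5 (chr14:54614119-54618022, minus strand, GRCm38 with GENCODE M21) encodes the chymotrypsin-like subunit, the target of the drug bortezomib. It stood at 56.1, 62.2 and 54.7 FPKM in control livers against 75.5, 72.1 and 73.3 FPKM in livers labelled knockout, so that every liver labelled knockout lay above every control (log2 difference 0.35, SE 0.11, 95% interval 0.08 to 0.61, limma adjusted p = 0.425). An exon of Psmb5 holds Mir686 on the same strand, whose reads cannot be told apart from those of Psmb5. Mir686 itself was listed at 585 ± 27.2 FPKM in controls and 571 ± 147 FPKM in the livers labelled knockout. Psmb6, the caspase-like subunit, was at 114 ± 15.2 against 121 ± 15.3 FPKM. Psmb7, the trypsin-like subunit, was at 133 ± 17.9 against 137 ± 8.15 FPKM.

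Among the beta subunits without a cutting site, Psmb4 was the most abundant. It was at 153, 172 and 147 FPKM in control livers against 148, 219 and 203 FPKM in livers labelled knockout. Knockout replicates 2 and 3 lay above the controls and knockout replicate 1 among them (log2 difference 0.25, SE 0.18, limma adjusted p = 0.683). The other 3, Psmb1, Psmb2 and Psmb3, had differences from -0.04 (Psmb1) to 0.10 (Psmb2). For the beta ring as a whole the median difference was 0.09, with 6 of 7 means higher. It was 0.20 without control replicate 2 and 0.17 without knockout replicate 1 (7 of 7 higher in both), and 0.023 to 0.040 without each of the other 4 livers.

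Psmb5, Psmd8, Psmd13 and Psmf1 were the 4 members with an unadjusted p under 0.05, and Psmd4 had the largest positive difference. The stretches before their RefSeq starts are shown because these genes lead the comparison. Each line gives the 250 bases before the RefSeq start on GRCm38.p6, 5′ to 3′ on the gene's strand. For Psmd13 and Psmf1 this stretch lies wholly inside the gene span given in this report from GENCODE M21, which starts further upstream. For Psmb5 and Psmd8 it overlaps that span in part. Capitals mark the core of the antioxidant response element, TGACNNNGC or TGAGNNNGC on either strand, the sequence that NRF1 and NRF2 bind with small MAF proteins. The windows are chr14:54617996-54618245 (minus strand) for Psmb5, chr7:29180674-29180923 (minus) for Psmd8, chr7:140882144-140882393 (plus) for Psmd13, chr2:151741311-151741560 (minus) for Psmf1 and chr3:95042615-95042864 (minus) for Psmd4.
Psmb5: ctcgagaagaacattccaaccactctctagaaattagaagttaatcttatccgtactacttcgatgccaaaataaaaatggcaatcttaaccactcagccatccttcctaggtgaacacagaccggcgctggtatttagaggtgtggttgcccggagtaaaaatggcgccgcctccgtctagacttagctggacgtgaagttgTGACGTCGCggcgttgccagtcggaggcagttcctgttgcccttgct
Psmd8: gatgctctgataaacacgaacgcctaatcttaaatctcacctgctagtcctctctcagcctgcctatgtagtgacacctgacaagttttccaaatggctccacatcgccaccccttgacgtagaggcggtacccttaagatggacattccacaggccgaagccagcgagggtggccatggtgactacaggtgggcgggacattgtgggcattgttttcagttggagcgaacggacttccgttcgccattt
Psmd13: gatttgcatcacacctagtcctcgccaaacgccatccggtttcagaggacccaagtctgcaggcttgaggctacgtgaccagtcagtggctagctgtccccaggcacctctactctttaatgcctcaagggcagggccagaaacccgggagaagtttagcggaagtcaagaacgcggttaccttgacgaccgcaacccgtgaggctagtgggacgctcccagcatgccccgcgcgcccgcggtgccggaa
Psmf1: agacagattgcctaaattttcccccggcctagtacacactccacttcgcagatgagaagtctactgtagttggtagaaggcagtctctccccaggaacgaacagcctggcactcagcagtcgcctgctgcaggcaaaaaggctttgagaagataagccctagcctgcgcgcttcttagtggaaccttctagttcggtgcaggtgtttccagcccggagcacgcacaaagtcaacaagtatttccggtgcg
Psmd4: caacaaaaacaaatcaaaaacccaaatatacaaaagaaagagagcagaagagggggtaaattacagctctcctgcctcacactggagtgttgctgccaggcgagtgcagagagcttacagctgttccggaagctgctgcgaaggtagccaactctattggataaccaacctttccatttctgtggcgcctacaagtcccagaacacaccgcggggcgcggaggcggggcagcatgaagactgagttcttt
Psmb5 holds 1 match, from 47 to 39 bases before the RefSeq start, and these letters are in none of the other 4 windows. The bases before the GENCODE starts of Psmd13 and Psmf1 were not searched. RefSeq windows were at hand for 38 of the 46 genes. Of those 38, 12 held a match (31.6%), against 25.7% of 27025 genes with a window. The match is a description of letters and not a measured site.

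Assembly genes were mixed. Psmd9 and Psmd10 encode chaperones of the base (p27 and gankyrin), as does Psmd5, and Psmg1 to Psmg4 encode the chaperones of the alpha ring. Their median difference was 0.16, with 6 of 7 means higher, and 0.01 without knockout replicate 1. Psmd9 was at 13.1, 15.5 and 16.2 FPKM in control livers against 13.2, 28.4 and 21.3 FPKM in livers labelled knockout. Knockout replicates 2 and 3 lay above the controls and knockout replicate 1 among them (log2 difference 0.41, SE 0.27, limma adjusted p = 0.654), and exons of Psmd9 overlap Gm26745 on the other strand. Psmg4 had the smallest p, at 19.6, 15.8 and 15.9 FPKM against 20.5, 22.4 and 19.9 FPKM. Every liver labelled knockout lay above every control, knockout replicate 3 by a narrow margin (log2 difference 0.28, SE 0.13, limma adjusted p = 0.530). Psmg1, the most abundant, was at 18.4, 27.2 and 21.3 FPKM against 24.9, 21.2 and 20.9 FPKM, with means of 22.3 and 22.4 FPKM. Psmd10 differed in knockout replicate 1 above all, at 13.7 FPKM against 8.05 and 9.75 FPKM in the other livers of its label and 8.90 ± 1.67 FPKM in controls.

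The inhibitor and the nuclear caps stood slightly higher. Psmf1 (chr2:151715812-151744186, minus strand) encodes PI31, a protein named for its inhibition of the core particle in the test tube. It had the smallest p of all members, at 8.17, 7.58 and 8.20 FPKM in control livers against 10.3, 10.3 and 10.5 FPKM in livers labelled knockout. The livers labelled knockout lay close together (SD 0.109 FPKM) and above every control (log2 difference 0.34, SE 0.10, 95% interval 0.10 to 0.59, limma adjusted p = 0.386). Psme3, the nuclear cap PA28 gamma, was at 21.6, 19.4 and 23.6 FPKM against 24.6, 27.4 and 24.6 FPKM. Psme4, the large cap PA200, was at 23.3, 23.7 and 21.1 FPKM against 25.0, 26.9 and 25.6 FPKM. In both genes the groups did not overlap, and neither passed (limma adjusted p = 0.570 and 0.613).

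**Figure D5:**
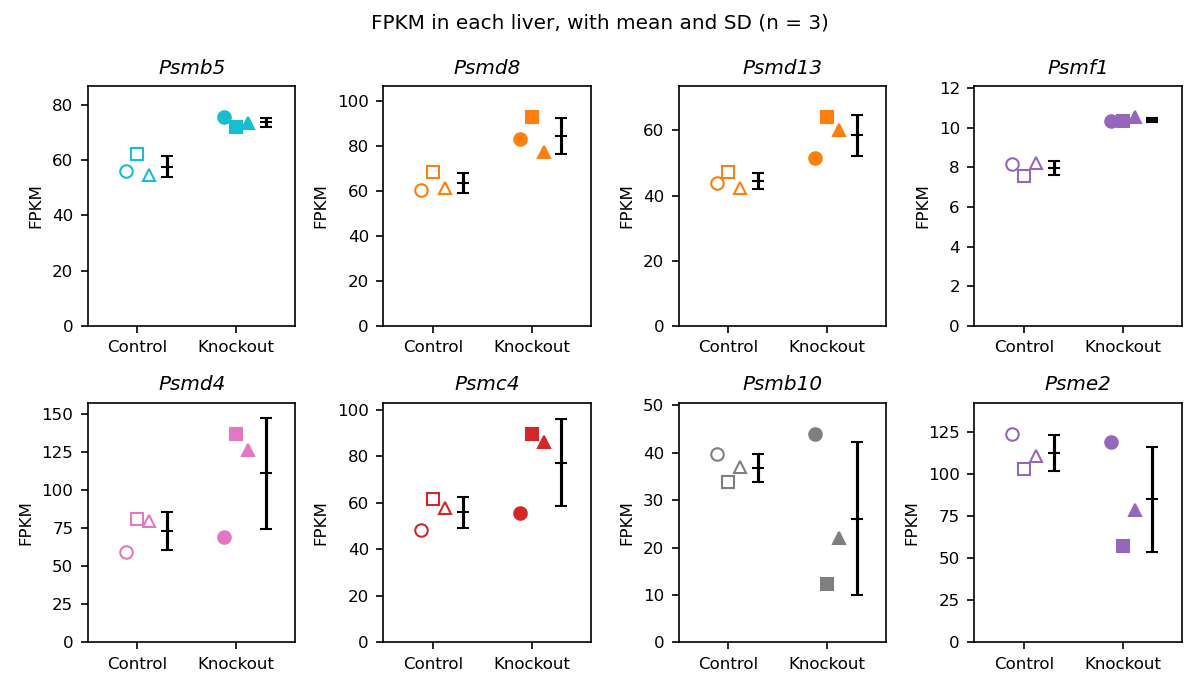
FPKM of 8 proteasome genes in each liver, with open symbols for controls, filled symbols for livers labelled knockout, circles, squares and triangles for replicates 1, 2 and 3, and the mean with SD (n = 3) beside them. Psmb5, Psmd8, Psmd13 and Psmf1 do not overlap between groups, and in Psmd4, Psmc4, Psmb10 and Psme2 knockout replicate 1 lies with the controls or, for Psmb10, above them.

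Of the interferon-linked members, Psmb10 and Psme2 lay below every control in knockout replicates 2 and 3, and Psme1 did so in knockout replicate 2 alone. Psmb10 encodes a catalytic subunit that replaces Psmb7 in the immunoproteasome, which makes peptides for MHC class I. It was at 39.8, 33.9 and 37.0 FPKM in control livers against 44.0, 12.4 and 22.0 FPKM in livers labelled knockout, the largest difference of all members in size (log2 difference -0.65, SE 0.41, 95% interval -1.64 to 0.33, limma adjusted p = 0.634). Without knockout replicate 1 it was -1.11 (SE 0.24, limma adjusted p = 0.0967). Psme2, a subunit of the interferon-induced cap PA28, was at 124, 103 and 111 FPKM against 119, 57.3 and 78.3 FPKM (log2 difference -0.46, SE 0.26, limma adjusted p = 0.609). Without knockout replicate 1 this difference was -0.73 (limma adjusted p = 0.119), and Psme2 shares sequence with its copy Psme2b, so its level is uncertain. Psme1, its partner and the most abundant cap gene, was at 134, 100.3 and 109 FPKM against 141, 79.3 and 109 FPKM.

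Outside the set, Psmb8 was at 58.9, 30.1 and 41.4 FPKM in control livers against 63.4, 23.7 and 29.0 FPKM in livers labelled knockout, and Psmb9 at 35.9, 21.7 and 27.8 against 45.4, 12.5 and 22.1 FPKM. Both had their highest value in knockout replicate 1 and their lowest in knockout replicate 2, as did Psmb10 and Psme1. Of 12 interferon-linked genes, 0 were called and 8 had a lower mean (background 43.9%). Their summed level was 198, 97.6 and 144 FPKM in control livers against 190, 58.0 and 131 FPKM in livers labelled knockout. Within each group the summed Kupffer cell and macrophage markers were also lowest in replicate 2 (140 FPKM in the control and 263 FPKM in the knockout liver). Over all livers that sum was lowest in control replicate 2, and the interferon-linked sum in knockout replicate 2. Marco, on the macrophage list, had its highest value in knockout replicate 2 (34.6 FPKM, against 13.5 and 23.1 FPKM in knockout replicates 1 and 3). Cd3g, Ptprc, Nkg7 and Gzma were the 4 tested of 10 genes on the lymphoid list, and Ptprc is not particular to lymphoid cells. The 10 summed to 3.22 to 11.3 FPKM in controls and to 21.7, 5.66 and 11.997 FPKM in the others. Ptprc gave 10.3 of the 21.7 FPKM in knockout replicate 1. In that liver Cd3g and Nkg7 lay above the controls and Gzma among them. The part of these cells in the immunoproteasome values was not tested.

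Genes that work with the proteasome gave a mixed picture. Of 12 tested partners 6 means were higher and 6 lower (background 56.1% higher), with a median difference of -0.02. Among them 0 were called and 1 was higher at an unadjusted p under 0.05 (background 6.34%). Zfand2a, a zinc finger protein of the proteasome that is induced by arsenite, was that 1 gene, at 3.72, 2.88 and 3.82 FPKM in control livers against 5.52, 6.20 and 7.66 FPKM in livers labelled knockout (log2 difference 0.73, SE 0.16, limma adjusted p = 0.317). Adrm1, the ubiquitin receptor RPN13 at the top of the base, was at 26.7, 34.4 and 34.8 FPKM against 29.3, 44.9 and 46.9 FPKM, with the same livers above the controls as for the base genes. Pomp, which matures the core, was at 178 ± 14.6 against 164 ± 8.17 FPKM.

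Of the regulators, Nfe2l1 was at 40.5, 29.8 and 48.9 FPKM in control livers against 40.0, 47.2 and 57.4 FPKM in livers labelled knockout, with overlapping groups (log2 difference 0.29, SE 0.22, limma adjusted p = 0.710). Nfe2l2, which encodes NRF2, was at 50.1, 38.2 and 42.3 FPKM against 72.9, 37.9 and 43.0 FPKM, with knockout replicate 1 well above the controls, knockout replicate 2 just below them and knockout replicate 3 among them. Among 11 regulators 0 were called and 1 was higher at an unadjusted p under 0.05 (background 6.34%). That gene was the small MAF gene Mafk (log2 difference 0.38, SE 0.14, limma adjusted p = 0.474). Of 16 tested NRF2 targets 0 were called and 1 was higher at an unadjusted p under 0.05 (background 6.34%). This was Srxn1 (sulfiredoxin), at 17.6 ± 5.59 against 52.0 ± 16.8 FPKM. The list's median difference was 0.13, and -0.20 without knockout replicate 1.

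Ubiquitin genes and the shuttles that carry tagged proteins to the proteasome all had higher means, by small amounts. Of 15 tested, 15 means were higher (background 56.1%), with a median difference of 0.18. At an unadjusted p under 0.05, 2 were higher (background 6.34%), and 0 were called. Under quantile normalization 14 means were higher (5281 of all 10963 tested genes). Nploc4, an adaptor of the unfolding ATPase VCP, had the largest difference, at 17.7, 14.4 and 20.7 FPKM in control livers against 22.4, 31.5 and 27.0 FPKM in livers labelled knockout (log2 difference 0.59, SE 0.18, limma adjusted p = 0.417). Ubb, a polyubiquitin gene, had a difference of 0.31 (SE 0.17). Sqstm1, which encodes the receptor p62 that binds ubiquitin chains for autophagy, was at 211 ± 14.8 against 341 ± 22.3 FPKM. It was not called (log2 difference 0.69, SE 0.13, limma adjusted p = 0.272).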

How the data were processed

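Per the labels' protocols, flash-frozen liver gave poly(A) RNA for directional libraries, sequenced from a single end. Per the submitters' processing notes, STAR and DESeq2 were among the tools and mm10 was the build. The notes give no roles, and annotation, reads with several matches and strand in counting are not given in the sources used. The authors' table holds FPKM, 1 column per library; its header gives no unit, which was inferred from the numbers. The plan put limma on FPKM as the test, so no count test was run.

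limma 3.58.1 in R 4.3.3, with an intensity trend, was run on log2(FPKM + 1). Genes were kept if 3 or more libraries held 1 FPKM or more (10963 genes), and p-values were adjusted over all of them (Benjamini-Hochberg, 0.05). Differences are labelled knockout minus control and understate the change of low genes. An exact permutation test of 3 livers against 3 cannot give a two-sided p under 0.1, so none was run. Read totals were estimated from values under 0.5 FPKM in genes with a transcript over 1500 bases: 61.7 to 65.6% of these came within 0.05 of whole reads (10.0% by chance), so depth is approximate. In GENCODE M21, 11 of 46 genes overlap exons of another gene and 13 have a near-copy, mostly pseudogenes (95% identity over 200 bases, BLAST+ 2.17.0), whose reads may be split: Psma3, Psma4, Psma5, Psmb3, Psmb5, Psmb7, Psmc1, Psmd1, Psmd2, Psmd11, Psmd13, Psmg3 and Psme2.

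The main test did not pair the livers by replicate number, and only the replicate block did. Deviations from group means correlated at 0.477, 0.279 and 0.283 for equal numbers 1, 2 and 3, and at -0.384 to 0.120 for unequal numbers. These correlations are tied together, since each deviation is taken from the mean of the same 3 livers. Members, classes and lists were chosen with earlier results of these data known. Values in each liver are given for members with an unadjusted p under 0.05, for the smallest p and the highest level in each class and for tissue isoforms. Psmd9, Psmd10, Psme2, Psme3, Psme4, Adrm1 and Ubb were chosen outside that rule after their values were seen, as were the members given by mean and SD. Alternatives were a pseudocount of 0.1, no filter, a filter at 5 FPKM, quantile and median-of-ratios scaling, sample quality weights, the replicate block and each liver left out in turn.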

Additional observations from a re-analysis of the deposited data

How the results depend on the processing

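With the replicate block, 0 members were called and 6 were higher at an unadjusted p under 0.05, and no call changed. No member was called under any alternative except sample quality weights, which called 2 higher (Psmc4 and Psmd13) and gave 20 higher and 2 lower at an unadjusted p under 0.05 (13.8% and 13.1% of all genes). These weights rest on single livers (8.30 for knockout replicate 3, 0.264 for knockout replicate 1) and called 311 genes higher and 226 lower over the whole table; the filter at 5 FPKM called 1 lower. Leaving out each liver in turn gave 1 to 78 genes called higher and 1 to 75 lower over the whole table, and an assembly median of 0.00817 to 0.20. At an unadjusted p under 0.05 it gave 1 to 14 members higher and 0 to 2 lower. The 14 higher and 2 lower came without knockout replicate 1, where 8.46% of all genes were higher and 9.09% lower. The lowest count of higher members came without control replicate 3. Of 44 members, 15 turned sign under at least 1 of 13 alternatives and 29 under none. Psma1 turned to -0.00119 and Psmg1 to -0.00861 under median-of-ratios scaling, Psmg1 to -0.029 under quantile normalization, and Psma2 to 0.052, Psmb1 to 0.055, Psmd5 to -0.059 and Psmg1 to -0.017 with weights. With each liver left out, the log2 differences that turned ran as follows: Psma1 -0.067 to 0.070, Psma2 -0.17 to 0.024, Psma4 -0.20 to 0.043, Psma6 -0.013 to 0.15, Psmb1 -0.13 to 0.066, Psmb3 -0.12 to 0.21, Psmb7 -0.021 to 0.15, Psmc2 -0.021 to 0.18, Psmc6 -0.12 to 0.00725, Psmd6 -0.015 to 0.27, Psmd12 -0.00997 to 0.30, Psmd5 -0.044 to 0.12, Psmg1 -0.11 to 0.16, Psmg3 -0.12 to 0.038, Psme1 -0.29 to 0.12. The cause of these changes was not tested. About 83.3 reads (Psmg4) limit the precision of the lowest members, and 3 livers a group limit all of them.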
